A study of Mus musculus with 26 samples.

Results

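Group 2 innate lymphoid cells (ILC2s) of the unchallenged C57BL/6J lung are described here from 3 of the 26 libraries of the series, namely those whose labels give the strain as C57BL/6J and the treatment as none. C57BL/6J is an inbred mouse strain, the source of the mouse reference genome, and the animals carried no engineered allele. Each library came from the lungs of a separate age-matched female mouse. After lineage depletion and enrichment on CD25 beads, live lineage-negative lymphocytes that stained for CD90, CD127, CD25 and ICOS were sorted, with antibodies to CD3, CD4 and FcεR1 in the lineage mixture. RNA was amplified with a kit for very low input, and reads were counted per gene. The remaining 23 libraries, from another strain or from cultured cells, were used only for their number. With a single group, no contrast was tested. Levels, ranks and the spread among the 3 libraries are given as descriptions, with the value of each library in the order of replicates 1, 2 and 3 and mean ± SD with n = 3.

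ILC2s are tissue lymphocytes that develop from the common lymphoid progenitor under the control of ID2, GATA3 and RORα and carry no rearranged antigen receptor on their surface. In the lung they sit near airways and vessels, sense epithelial alarmins such as IL-33, TSLP and IL-25 together with lipid mediators and neuropeptides, and release IL-5, IL-13, GM-CSF and amphiregulin. IL-5 keeps eosinophils alive, and amphiregulin acts on epithelial repair.

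The libraries held 13533363, 14417701 and 15234305 counts in genes. A level in CPM is a gene's counts per 1000000 counts in genes of its library, scaled for composition by TMM among these libraries. Since longer genes collect more reads, levels of different genes are compared only per exonic kilobase, as TPM, counts per exonic base scaled to a sum of 1000000. A gene was called detected at 1 CPM or more in every library, which held for 7592 of 21897 protein-coding genes (34.7%) and for 9214 genes of any kind. Without replicate 3, 9688 genes were detected. The counts of detected list members below are to be read beside the 34.7% of all protein-coding genes. At these depths 3 counts, the most that an observed count of 0 allows, stand for 0.179 to 0.232 CPM, by counting error only.

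Replicate 3 stood apart from the others before any gene was considered on its own. Across 2955 protein-coding genes with a mean of at least 50 CPM, Pearson's r of log2(CPM + 0.1) was 0.86 between replicates 1 and 2, but 0.57 between replicates 1 and 3 and 0.57 between replicates 2 and 3. Across 13450 genes of any kind with a mean of at least 1 CPM the gap was smaller, with 0.74, 0.63 and 0.62 for the same pairs. These are correlations across genes, which are not independent replicates. In replicate 3, Sftpc, the surfactant protein C gene of alveolar type 2 epithelial cells, was at 10298 CPM, or 1.13% of its counts, against 0.0775 and 0.29 CPM in the other libraries. Lyz2 (lysozyme), which was listed with macrophage and neutrophil genes, was at 0.0775, 12.1 and 881 CPM. The cells it came from were not tested. The class II MHC genes that form the peptide-binding I-A molecule were seen in replicate 3 only, with H2-Ab1 at 0, 0 and 212 CPM and H2-Aa at 0, 0 and 169 CPM. Xist, the RNA of the inactive X chromosome, was at 608, 644 and 308 CPM, and all Y chromosome genes together summed to 0.436 to 1.85 CPM, in libraries labelled female. In bulk samples, fewer cells of a type and less RNA per cell cannot be told apart.

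Of 10 chosen ILC2 markers all 10 were detected (34.7% of protein-coding genes were), 10 of 10 also without replicate 3. The markers were chosen with earlier results of these data known, so this is no independent check of identity. Il13, described below, was not among them and was not detected. Of these markers, Il7r and Icos encode proteins of the sort gate, so their detection is no finding. None of the 10 differed by 2 times or more between the highest and the lowest library, whereas 5295 of 7893 genes with a mean of at least 10 CPM did (67.1%). All 10 had means above 200 CPM, where this share was lower. It was 50.9% of genes from 200 to 1000 CPM and 50.4% of genes at 1000 CPM or more. Id2, which encodes the inhibitor of E proteins that all ILCs need, was at 5397, 6806 and 3598 CPM. Gata3, the master factor of type 2 lymphocytes, was at 199, 218 and 273 CPM, and its 103 ± 40.9 TPM ranked 1038 among protein-coding genes. The chemokine receptor gene Cxcr6 was at 2766, 2860.1 and 2479.7 CPM and ranked 26 per kilobase. Both factors and the receptor were thus present in every library. In CPM, Id2 was lowest and Gata3 highest in replicate 3. In TPM Gata3 varied more relative to its mean than Id2, which had 3608 ± 542 TPM. In CPM Gata3 varied less, with 230 ± 38.5 CPM against 5267 ± 1608 CPM for Id2.

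Arg1, the arginase of lung ILC2s, was at 1827, 1676 and 1386 CPM. The common gamma chain gene Il2rg, shared by the receptors of IL-2, IL-7 and IL-9, was at 1450.5, 1648 and 1674 CPM. Il1rl1, which encodes the IL-33 receptor ST2, was at 476, 322 and 330.3 CPM, highest in replicate 1 and nearly equal in the other libraries. Per kilobase it stood far lower than Il2rg, at 93.6 ± 19.7 against 1168 ± 323 TPM. ST2 was not part of the gate in this experiment. The 4 genes of the gate, by contrast, are no finding. Il7r (CD127) was at 758, 828 and 819 CPM, Icos at 810.2, 907 and 690.5 CPM, Il2ra (CD25) at 481, 389.6 and 263 CPM and Thy1 (CD90) at 146, 193 and 119.9 CPM, and all but Il7r were lowest in replicate 3.

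**Figure D1:**
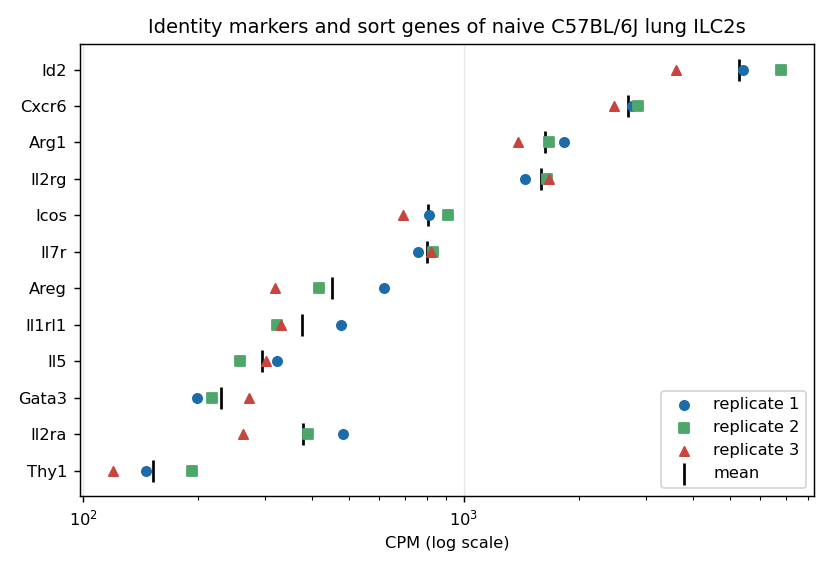
Levels of the 10 identity markers, followed by the sort genes Il2ra and Thy1 that are not among them, in CPM on a log axis. Each symbol is 1 library and the bar is their mean. For each of the 10 markers the 3 libraries lie within 2-fold, with values of 5397, 6806 and 3598 CPM for Id2 and 199, 218 and 273 CPM for Gata3.

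Cytokine and growth factor genes were uneven. Of 27 listed genes, 15 were detected (55.6%), 16 without replicate 3, and 8 had 0 counts in every library. The leading one was Csf2, which encodes GM-CSF, a growth factor of myeloid cells. It was at 2398, 2817 and 444 CPM, and with 3703 ± 2189 TPM it ranked 12 of all protein-coding genes. Its level in replicate 3 was far below both others, at 0.17 times their mean. Areg (amphiregulin) was at 618, 415 and 319 CPM, and Il5 was at 323, 258 and 301 CPM, the steadiest of the abundant cytokine genes.

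Il13, the other signature cytokine of ILC2s, was nearly absent, at 5.96, 4.07 and 0.479 CPM, and therefore not detected by the rule in replicate 3. Il5 had 334 ± 88.4 TPM and Il13 4.5 ± 3.37 TPM, and the ranges of the 2 genes over the libraries did not overlap. Il4 was at 36.2, 47.3 and 12.7 CPM. Calca, the gene of the neuropeptide CGRP, was at 276, 662 and 233 CPM, highest in replicate 2. Il2, known mainly as a T cell cytokine, was at 414, 289 and 124 CPM, and Tnfsf11 (RANKL) at 118, 80.4 and 46.4 CPM. Both were lowest in replicate 3, whereas Ebi3, a subunit of IL-27 and IL-35, was highest in replicate 3, at 37.7, 25.9 and 125 CPM. Il9, Il10, Il3, Il17a, Il22, Ifng, Il1b and the enkephalin gene Penk had 0 counts in all 3 libraries.

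Among 13 chemokine ligand genes 4 were detected (30.8%, near the 34.7% of all protein-coding genes). Ccl1, the ligand of CCR8, was at 685, 886 and 143 CPM, and like Csf2 it was lowest in replicate 3. The neutrophil attractant Cxcl2 was at 64.2, 98.9 and 178 CPM, and Ccl5 at 41.1, 28.9 and 10.8 CPM. Ccl2, Ccl3, Ccl17, Ccl22 and Xcl1 had 0 counts throughout. Some genes were on in a part of the libraries only, such as Cxcl3 at 27.1, 0.0726 and 0 CPM and Cxcl10 at 31.1, 0.29 and 23.1 CPM.

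The 250 bases before the annotated start of 5 of these genes are shown. Csf2, Areg, Il5 and Il2 are among the abundant cytokine genes of the profile, and Il13, which lies near Il5 on chromosome 11, is the signature cytokine gene that was nearly silent. The sequences are from RefSeq on GRCm38.p6, on the gene's own strand. Capitals mark the letters TATAAA, which many core promoters carry, and AGATAA, a form of the sequence that GATA factors bind. Both were searched on either strand, and a match on the other strand appears as its reverse complement. In Il13 a TATAAA match on one strand overlaps a match on the other, and no match of one motif overlapped the other motif. Csf2 (chr11:54249900-54250149, minus strand), Il5 (chr11:53720544-53720793, plus strand), Il13 (chr11:53634703-53634952, minus strand), Areg (chr5:91139349-91139598, plus strand) and Il2 (chr3:37125955-37126204, minus strand) read as follows.
Csf2: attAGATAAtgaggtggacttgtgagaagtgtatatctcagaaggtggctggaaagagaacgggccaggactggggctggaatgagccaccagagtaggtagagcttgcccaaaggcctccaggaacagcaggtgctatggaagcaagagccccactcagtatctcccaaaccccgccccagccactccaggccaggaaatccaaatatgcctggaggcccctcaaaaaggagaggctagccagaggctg
Il5: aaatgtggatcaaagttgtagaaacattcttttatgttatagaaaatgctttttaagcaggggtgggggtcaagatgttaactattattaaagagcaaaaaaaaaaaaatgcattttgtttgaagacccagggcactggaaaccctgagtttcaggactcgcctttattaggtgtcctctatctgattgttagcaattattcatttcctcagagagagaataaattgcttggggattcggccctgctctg
Il13: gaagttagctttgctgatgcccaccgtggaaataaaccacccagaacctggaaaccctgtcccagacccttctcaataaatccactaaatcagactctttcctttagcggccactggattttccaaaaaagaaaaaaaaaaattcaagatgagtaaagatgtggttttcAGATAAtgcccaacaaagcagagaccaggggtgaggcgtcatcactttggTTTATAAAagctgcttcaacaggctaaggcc
Areg: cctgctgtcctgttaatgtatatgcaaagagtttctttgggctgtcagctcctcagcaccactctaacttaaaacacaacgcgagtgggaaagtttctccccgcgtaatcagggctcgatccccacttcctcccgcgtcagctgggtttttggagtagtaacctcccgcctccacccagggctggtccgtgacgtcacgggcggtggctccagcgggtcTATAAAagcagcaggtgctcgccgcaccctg
Il2: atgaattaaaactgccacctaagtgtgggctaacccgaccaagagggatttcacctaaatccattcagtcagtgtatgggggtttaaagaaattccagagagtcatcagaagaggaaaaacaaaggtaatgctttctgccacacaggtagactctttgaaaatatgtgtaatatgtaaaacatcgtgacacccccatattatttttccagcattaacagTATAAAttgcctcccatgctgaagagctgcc
TATAAA began 31 bases before the start in Areg and Il2 and lay close to the start in Il13 as well, while these letters were not in the windows of Csf2 or Il5. AGATAA was in the windows of Csf2 and Il13. Over 32851 RefSeq promoter windows of the same length, 12.4% held TATAAA and 9.99% held AGATAA. For the cytokine and chemokine lists, 35 windows of 31 genes were found, of which 11 (31.4%) and 9 (25.7%) held them. Among the 19 windows of detected members it was 4 (21.1%) and 3 (15.8%), and among 7706 windows of all detected protein-coding genes 6.1% and 5.8%. A match of letters is a description of the sequence only, and the nearly silent Il13 carried both.

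**Figure D2:**
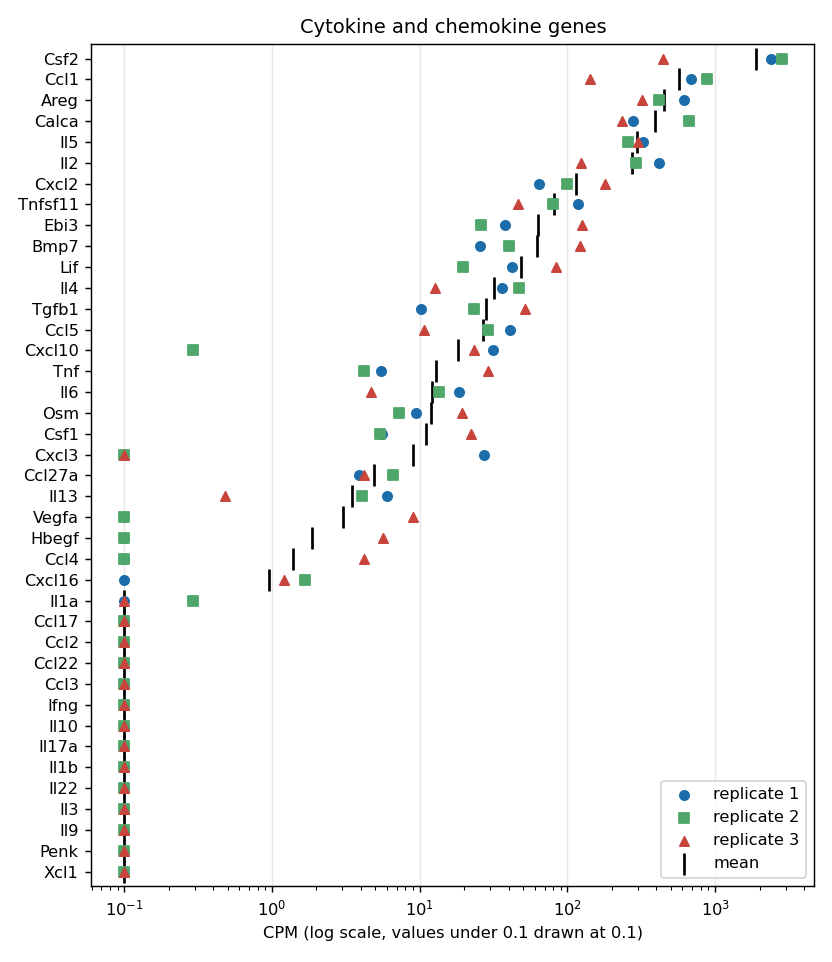
All 27 cytokine and growth factor genes and all 13 chemokine ligand genes, ordered by mean level, in CPM on a log axis. Each symbol is 1 library, the bar is the mean, and values under 0.1 CPM are drawn at 0.1. Csf2 leads in every library and is lower in replicate 3 than in the others, at 444 CPM.

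Of 17 granule and enzyme genes 10 were detected (58.8%, against 34.7% of all protein-coding genes). Lgals1 (galectin-1) was at 2959.6, 3057 and 1159.9 CPM and Srgn (serglycin, the proteoglycan core of secretory granules) at 1895, 1939.5 and 1021 CPM, both lowest in replicate 3. The lipoxygenase Alox5, which starts leukotriene synthesis, was at 91.2, 19.2 and 244 CPM, and Hpgds, a prostaglandin D2 synthase, at 39.6, 50 and 16.5 CPM. The cytotoxic genes Gzma, Gzmb, Gzmc and Prf1 had 0 counts in all libraries.

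Receptors for alarmins and costimulation were largely present, with 12 of 17 detected (70.6%, against 34.7% of all protein-coding genes). Tnfrsf18 (GITR) led at 1838, 1690.3 and 2377 CPM. Il17rb, the IL-25 receptor chain, was at 40.8, 89.1 and 65.5 CPM, and Crlf2, the TSLP receptor chain, at 5.81, 3.63 and 24.6 CPM. Per kilobase the alarmin receptors were ordered Il1rl1 with 93.6 ± 19.7 TPM, Il17rb with 30.6 ± 12.1 TPM and Crlf2 with 15.2 ± 18.1 TPM, and the range of Crlf2 reached into that of Il17rb through replicate 3, at 36.1 TPM. The IL-33 co-receptor gene Il1rap was at 0, 10.5 and 2.33 CPM and the IL-18 receptor gene Il18r1 at 2.71, 0.363 and 0 CPM, neither of them detected. Il1r2, the IL-1 decoy receptor, was seen in replicate 2 only, at 37.2 CPM, and Tnfrsf4 (OX40) mainly in replicate 1, at 48.4 CPM.

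Among other cytokine receptors 18 of 26 were detected (69.2%, against 34.7% of all protein-coding genes). Ifngr1 (IFN-γ receptor) was at 283, 213 and 808 CPM, highest in replicate 3. Kit, the stem cell factor receptor, was at 216, 156 and 109 CPM, Il27ra at 36.2, 78.3 and 173 CPM, Il10ra at 25.6, 46.7 and 70.8 CPM and Il9r at 10.8, 48.7 and 37.7 CPM. Il5ra, Il13ra1 and Il12rb2 had 0 counts in all libraries, and the GM-CSF receptor chain Csf2rb had 0, 0.0726 and 0 CPM, beside the high level of its ligand gene Csf2.

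Neuropeptide and neurotransmitter receptor genes, listed with the ligand genes Nmu and Vip, were detected for 6 of 15 members (40%, against 34.7% of all protein-coding genes). Ramp1, the CGRP co-receptor, was at 2211, 2455 and 1189 CPM, and its partner Calcrl at 26.6, 61.6 and 31.1 CPM. Ramp1 with 1068 ± 189 TPM was far above Calcrl with 13.8 ± 5.4 TPM, without overlap, and the ligand gene Calca stood between them with 383 ± 187 TPM. Nmur1, the neuromedin U receptor, was at 30.1, 20.5 and 133 CPM, highest in replicate 3. Vipr2 (VPAC2) was at 8.6, 35.6 and 52.4 CPM, and Vipr1, Chrna7, Chrm3, Sstr2, Drd1, Nmu and Vip had 0 counts.

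Among lipid mediator receptors 8 of 16 were detected (50%, against 34.7% of all protein-coding genes). Gpr183, the oxysterol receptor EBI2, was at 519, 334 and 520.4 CPM, the leukotriene B4 receptor Ltb4r1 at 316, 309 and 514 CPM, and the cysteinyl leukotriene receptors Cysltr1 and Cysltr2 at 200.4, 222 and 167 CPM and 81.6, 39.1 and 64.1 CPM. Ptgir, the prostacyclin receptor, was at 47.8, 44.8 and 109 CPM. Ptgdr2 (CRTH2), the prostaglandin D2 receptor that marks ILC2s in humans, was at 0, 0 and 0.299 CPM, and Ptgdr and Ptger3 had 0 counts.

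Chemokine receptors were concentrated in 3 of 16 genes, with 8 detected (50%, against 34.7% of all protein-coding genes). Beside Cxcr6, Ccr8 was at 904, 793 and 2074 CPM and Ccr2 at 1163, 1318 and 1076 CPM. Cxcr6 had 2411 ± 348 TPM and Ccr8 2018 ± 1599 TPM, and these did not differ beyond their spread. Ccr8 was highest in replicate 3, where its ligand gene Ccl1 was lowest. Cxcr4, the CXCL12 receptor, was at 32.4, 4.65 and 53.7 CPM, and Ccr6 and Ccr10 had 0 counts.

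Metabolite receptors were detected for 7 of 14 genes (50%, against 34.7% of all protein-coding genes). Gpr65, a proton-sensing receptor, was at 282, 316 and 339 CPM, P2ry10, a lysophospholipid receptor, at 124, 88.4 and 142 CPM and the ADP receptor P2ry1 at 73.5, 22.4 and 71.1 CPM. The short-chain fatty acid receptor Ffar2 was at 23.2, 15.1 and 23.7 CPM, while Ffar3, the other receptor of these acids, had 0 counts in every library, which allows up to 0.179 to 0.232 CPM. Inhibitory receptors, their ligands and ectonucleotidases were detected for 8 of 19 genes (42.1%, near the 34.7% of all protein-coding genes). Klrg1 was at 226, 249.5 and 421 CPM, Cd200r1 at 311, 240.2 and 281 CPM, the ligand gene Pdcd1lg2 (PD-L2) at 182, 221 and 104 CPM and Pdcd1 (PD-1) at 16.8, 4.43 and 101 CPM, the last highest in replicate 3. Lag3, Btla and Cd5 had 0 counts, and Ctla4 was seen in replicate 1 only, at 12.5 CPM.

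**Figure D3:**
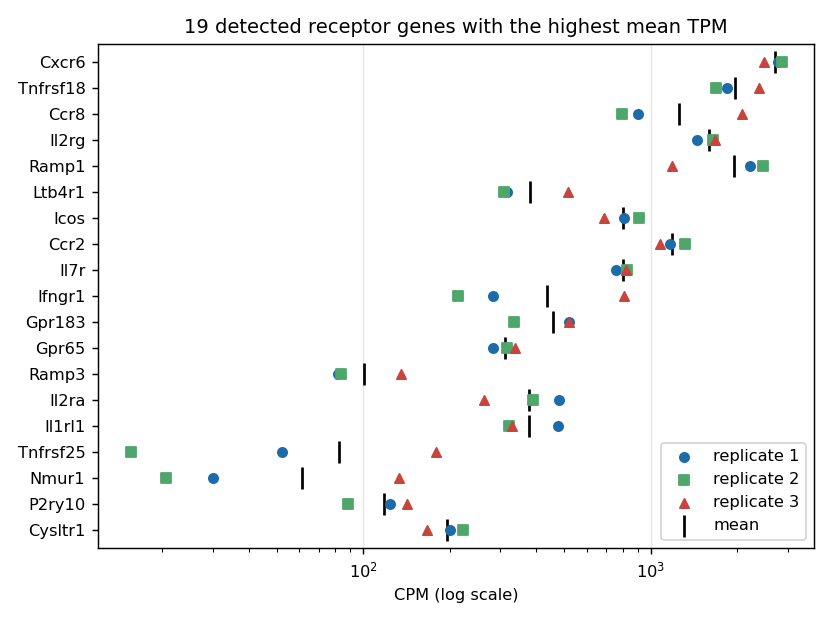
The 19 detected receptor genes with the highest mean TPM among the 6 lists of alarmin, cytokine, neuropeptide, lipid, chemokine and metabolite receptors, ordered by mean TPM and drawn in CPM on a log axis. Each symbol is 1 library and the bar is the mean. Cxcr6, Tnfrsf18, Ccr8 and Il2rg lead, and Tnfrsf25 and Nmur1 are lowest in replicate 2 and highest in replicate 3.

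Transcription factors of the ILC lineage were nearly all detected, at 28 of 30 (93.3%). After Id2, the LIM factor Lmo4 was at 219, 333 and 389.9 CPM, Klf6 at 178, 243 and 361 CPM, and Rora, required for ILC2 development, at 219, 109 and 394 CPM, lowest in replicate 2. Bcl11b, which keeps ILC2s from turning to other fates, was at 49.9, 40.2 and 31 CPM and Ets1 at 232, 192 and 187 CPM. Per kilobase Id2 with 3608 ± 542 TPM exceeded Gata3 without overlap, and Gata3 with 103 ± 40.9 TPM in turn exceeded Rora with 34.7 ± 27.8 TPM, also without overlap. Of the factors that define the sister lineages, Tbx21 (ILC1) and Eomes (NK cells) had 0 counts. Zbtb16, the PLZF gene of the ILC precursor, was at 0.465, 0.29 and 0 CPM.

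NF-κB and IL-33 signaling genes were detected for all 22 members, among them the inhibitor gene Nfkbia at 981, 1185 and 1943 CPM, Nfkbiz at 362, 257 and 261 CPM and the deubiquitinase Tnfaip3 (A20) at 406, 297 and 304 CPM. Nfkbia, with 1561 ± 940.1 TPM, had the highest mean of the list per kilobase. Of 17 STAT and SOCS genes 15 were detected (88.2%, against 34.7% of all protein-coding genes). The phosphatase Ptpn2 was at 418, 299 and 245 CPM and Jak1 at 205, 322 and 225 CPM, while Socs1, a feedback inhibitor of cytokine signaling, was at 36.1, 51.4 and 435 CPM. Socs3 was at 0.697, 0 and 0 CPM.

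Immediate early and dissociation genes, which respond within minutes to stimuli including tissue digestion, were detected for 28 of 30 members. Junb was at 405, 371 and 4012 CPM, Fos at 173, 70.8 and 658 CPM, Ier2 at 230.3, 381 and 1047 CPM, and Hspa8 at 428, 279 and 818 CPM. The list summed to 4659, 4269 and 11491 CPM, so that replicate 3 stood above both others, and Junb gave more of the difference than any other member. The difference was not shared by the whole list, since Fosb at 142, 67.1 and 55.8 CPM and Nr4a3 at 134, 77.7 and 32.4 CPM were lowest in replicate 3. The median GC content of the list was 53.5%, and GC-rich genes in general were higher in replicate 3, with a median log2 deviation of 0.86 in the fifth with the highest GC content. The part of base composition in this difference was not tested.

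Residence genes were detected for 16 of 21 members (76.2%, against 34.7% of all protein-coding genes). Rgs2 was at 3260.4, 2854 and 2320.1 CPM, S100a6 at 1191, 1341 and 556 CPM, the early activation and retention marker Cd69 at 1291, 871 and 488 CPM and Rgs1 at 622, 518 and 344 CPM. The egress receptor S1pr1 was seen in replicate 3 only, at 26.7 CPM. Among integrins, Itgb2 was at 89.9, 127 and 197 CPM and Itgb7 at 46.2, 99.8 and 348 CPM, and Itgae (CD103) was at 0, 0 and 3.11 CPM.

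Of 10 anti-apoptotic genes 9 were detected, among them Bcl2 at 215, 263 and 224 CPM, Birc3 at 181, 95.1 and 198 CPM and Bcl2a1d, which has close copies, at 74.3, 113 and 24 CPM. Of 15 pro-apoptotic genes 8 were detected (53.3%, against 34.7% of all protein-coding genes). Among them were Casp8 at 194, 155 and 158 CPM and Bax at 114, 146 and 93.3 CPM. Few cell cycle genes of the G2 and M phases were detected, against 34.7% of all protein-coding genes. Of 16 S phase genes 10 were detected, with Pcna at 184, 215 and 115 CPM and Slbp at 306, 143 and 297 CPM, but of 16 genes of the G2 and M phases 2 were (12.5%), namely Cdk1 at 10.5, 16.1 and 28.4 CPM and Ccna2 at 17.2, 14.5 and 22.3 CPM. Mki67, the proliferation marker, was at 0, 3.63 and 18.2 CPM. The summed G2 and M list was 29.7, 193 and 205 CPM, lowest in replicate 1.

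Metabolic genes differed in how evenly they were measured. Glycolysis genes were detected for 14 of 22 members (63.6%, against 34.7% of all protein-coding genes). Among them were Ldha at 613, 664 and 1538 CPM and Aldoa at 533, 351 and 1407 CPM. In 15 of 16 members with a mean of at least 10 CPM the highest library was at least 2 times the lowest (67.1% of all such genes), and in 10 of 16 replicates 1 and 2 alone were that far apart (33.5%). The list summed to 1802, 1515 and 4377 CPM, at a median GC content of 52.9%. Iron and redox genes were steadier, with 5 of 15 and 0 of 15 by the same rules. The shares of all genes were not matched for level, and from 200 to 1000 CPM they were 50.9% and 2.31%. Fth1, the ferritin heavy chain, was at 4504, 5225 and 4034 CPM and Prdx1, a peroxiredoxin, at 2203, 1838 and 797 CPM. Lipid genes were detected for 9 of 17 members, among them Pparg at 195, 84 and 153 CPM and Plin2, a lipid droplet protein, at 97, 131 and 171 CPM, while the fatty acid transporter Cd36 was at 14.4, 0 and 269 CPM, high in replicate 3. Of 15 genes of amino acid metabolism 12 were detected. The transporter chain Slc3a2 was at 189, 169.8 and 575 CPM and Odc1, the first enzyme of polyamine synthesis, at 169, 206 and 217 CPM.

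Tmsb4x (thymosin β4, which binds actin monomers) alone held 6.24%, 6.81% and 2.66% of counts. B2m, which encodes the β2-microglobulin of class I molecules, was at 19219, 18097 and 7009 CPM, and the mitochondrial mt-Cytb at 10962, 9382 and 4924 CPM. These 3 genes were lowest in replicate 3, and the 100 most abundant genes held 31.6%, 31.7% and 25.8% of counts (29.7% ± 3.38, SD, n = 3). By share of counts the 14 leading protein-coding genes were Tmsb4x, B2m, mt-Cytb, Ly6e, mt-Co1, Itm2b, Id2, Arhgdib, Actb, Ubb, mt-Nd1, Fth1, Sh3bgrl3 and H3f3b, down to 4916, 5579 and 2476 CPM for the histone gene H3f3b. Ly6e, a GPI-anchored surface protein, was at 5600.5, 6515 and 8481 CPM and highest in replicate 3.

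Per kilobase the 14 leading genes were Tmsb4x with 63323 ± 21546 TPM, B2m with 27898 ± 8776 TPM, mt-Cytb, Sh3bgrl3, mt-Nd1, Sftpc, mt-Co1, Arhgdib, Ubb, Lgals1, Cox6a1, Csf2, Itm2b and Id2 with 3608 ± 542 TPM. Sftpc was near 0 in replicates 1 and 2 and holds its place through replicate 3. Of the ILC2 markers and cytokines, Csf2 and Id2 were among them. Among genes that code for no protein the leading 5 were Malat1 at 4366, 4533 and 4206 CPM, the nuclear RNA of many cell types, the unclassified gene Gm37376 at 3539.9, 3648 and 3496 CPM, the pseudogenes Gm10123 and Gm15427, and the mitochondrial ribosomal RNA gene mt-Rnr2 at 2753, 2684 and 1303 CPM. Genes with near-identical copies are uncertain, since reads that fit several places may be dropped or assigned to the copy. Gapdh was at 4.96, 0.363 and 4.67 CPM, mt-Co2 at 9.37, 8.42 and 3.83 CPM beside mt-Co1 at 7872, 5725 and 4867 CPM, and pseudogenes took 6.18%, 6.07% and 4.3% of counts.

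Gene families of respiration and translation were nearly complete, and most of their members were lowest in replicate 3. Nuclear respiratory chain genes were detected for 86 of 94 members (91.5%) and summed to 41440, 41612 and 19849 CPM. Of 84 members with a mean of at least 10 CPM, 70 were lowest in replicate 3, where 36.4% of all such genes were, and 6 of 84 were 2 times or more apart between replicates 1 and 2 (33.5% of all). Cytosolic ribosomal protein genes summed to 37162, 38348 and 23201 CPM with 65 of 73 lowest in replicate 3, and mitochondrial ribosomal protein genes to 13629, 13378 and 7747 CPM with 51 of 77. Proteasome genes were detected for 48 of 50 members and summed to 19527, 18564 and 12974 CPM. The median exonic length was 1560 bases for respiratory chain genes, and the fifth of genes with the shortest exons had a median log2 deviation of −0.38 in replicate 3. The part of transcript length in these values was not tested.

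MHC genes went the other way in part. Of 13 members with a mean of at least 10 CPM, 11 were highest in replicate 3, where 42.5% of all such genes were. Of the 11, H2-Ab1, H2-Aa and H2-Eb1 passed that mean through replicate 3 alone, so that their place was fixed by the filter. H2-D1 was at 891, 988 and 4929 CPM and H2-K1 at 1394, 1390.1 and 2849.6 CPM, class I genes whose reads can be shared with their close relatives, while B2m was lowest in that library. The class II invariant chain gene Cd74 was at 55.8, 16.4 and 561 CPM, present in every library, whereas H2-Eb1 was at 0, 0.145 and 44.4 CPM. Interferon-induced genes were detected for 8 of 20 members (40%, near the 34.7% of all protein-coding genes). Beside Ly6e, Ifi203 was at 90.9, 86.8 and 82.2 CPM and Bst2 at 63, 67.3 and 115 CPM, while Mx1 was at 0.0775, 0 and 0 CPM.

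Marker lists of 12 other cell types or groups were read beside these values. In the epithelial list 2 of 14 genes were detected and the sum was 126, 64.1 and 11198 CPM. Sftpa1 was at 0.0775, 0 and 574 CPM and Sftpd at 0, 0 and 89.7 CPM, whereas Epcam at 46.2, 29.9 and 47.4 CPM and Hopx at 67.2, 31.9 and 79.9 CPM were present in every library, and the epithelial factor Nkx2-1 was at 0, 0.0726 and 0.239 CPM. The macrophage, monocyte and neutrophil list had no detected gene of 16, and summed to 0.62, 16.3 and 987 CPM, with Chil3 at 0.155, 0 and 83.6 CPM, Cd68 at 0, 0 and 16 CPM and Csf1r at 0, 1.16 and 3.11 CPM, and S100a8, S100a9 and Marco at 0. Of these sums Lyz2 alone gave 0.0775, 12.1 and 881 CPM. The endothelial list, with 1 of 8 detected, summed to 8.83, 11.9 and 198 CPM, with Plvap at 0, 0 and 113 CPM. Fibroblast and smooth muscle genes, 1 of 10 detected, summed to 6.2, 1.67 and 3.83 CPM, with Col1a2, Dcn, Lum and Pdgfrb at 0. Eosinophil genes, 0 of 8 detected, summed to 0.232, 0 and 37.1 CPM with Prg2, Epx, Siglecf and Il5ra at 0. Dendritic cell genes, 1 of 8 detected, summed to 16.6, 11.3 and 13.5 CPM, with Flt3, Clec9a, Cd209a and Siglech at 0.

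T cell genes were of another kind, since some of them were high in every library, with 11 of 18 detected and sums of 5394, 5381 and 2980 CPM. Tcrg-C4 was at 2079, 1954 and 907 CPM and Tcrg-C1 at 1271, 1135 and 318 CPM, constant segments of the T cell receptor gamma locus. Trbc2 was at 551, 720.0 and 489 CPM and Trbc1 at 425, 478 and 354 CPM, and the signaling chain gene Cd3g at 564, 769 and 293 CPM. Cd3e and Cd3d, which encode the partners of that chain, were at 14.8, 6.24 and 2.09 CPM and 98.4, 4.14 and 1.38 CPM. Trac, the alpha constant gene, was at 60.9, 15.2 and 0.0598 CPM, Cd4 at 7.05, 0.0726 and 0 CPM, and Cd8a and Cd8b1 at 0. Foxp3 was at 18.4, 0.653 and 8.14 CPM. Like Cd3e, Cd3d, Trac and Cd4 it was highest in replicate 1, whereas Cd3g, Trbc1 and Trbc2 were highest in replicate 2. CD3 and CD4 proteins were excluded by the sort. The segments Tcrg-C1, Tcrg-C2 and Tcrg-C4, like Trbc1 and Trbc2, resemble each other, so that reads can be split among them.

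B cell genes, 2 of 12 detected, summed to 331, 266 and 707 CPM. Ighm, the heavy chain gene of IgM, was at 320.1, 235 and 534 CPM, with Ms4a1 (CD20) at 0, 0 and 4.55 CPM and Igkc at 0, 0 and 82.1 CPM, so that the kappa light chain gene was seen in replicate 3 only. In the NK and ILC1 list, 2 of 12 detected, Nkg7 was at 39.4, 64.4 and 5.68 CPM and 9 genes including Ncr1 and Klrb1c were at 0 in all libraries, with sums of 80.5, 94.6 and 19.8 CPM. In the ILC3 list, 2 of 8 detected, sums of 2558, 2977 and 2399 CPM came almost wholly from Ltb (lymphotoxin β) at 2512, 2949 and 2318 CPM, and Il17a, Il17f, Il22 and Ncr1 were at 0. Mast cell and basophil genes, 4 of 12 detected, summed to 656, 867 and 303 CPM. Cpa3, a mast cell carboxypeptidase, was at 396, 683 and 181 CPM and Fcer1a at 37.3, 15 and 5.74 CPM, while Mcpt8, Cma1, Tpsb2, Ms4a2 and Mrgprb2 were at 0. Erythrocyte and platelet genes, 3 of 9 detected, summed to 462, 348 and 178 CPM. The α-globin gene Hba-a1 was at 327, 290.3 and 128 CPM with the β-globin gene Hbb-bs and Alas2 at 0, and Ppbp, a platelet chemokine, was at 112, 35.8 and 38.5 CPM. The part of other cells in any level given here was not tested beyond these values.

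**Figure D4:**
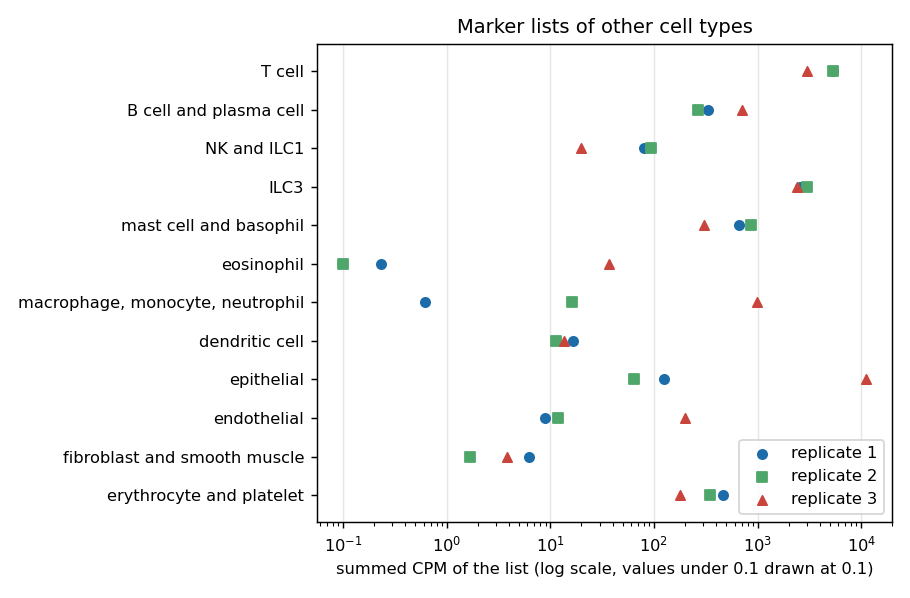
Summed CPM of 12 marker lists of other cell types in each library, on a log axis with values under 0.1 drawn at 0.1. Each symbol is 1 library. Epithelial genes sum to 126 and 64.1 CPM in replicates 1 and 2 and to 11198 CPM in replicate 3, while the sum of the T cell list is high in all 3 libraries, from 2980 to 5394 CPM.

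The spread among the libraries was wide for most genes. Each mouse gave a single library, so mouse, sort and amplification cannot be told apart in it. The biological coefficient of variation, edgeR's estimate of the relative variation between samples beyond counting error, was 0.62 over 9597 genes, and 0.54 without replicate 3. Of 7893 genes with a mean of at least 10 CPM, 5295 (67.1%) differed by 2 times or more between the highest and the lowest library. Without replicate 3, 2171 genes did, among those with that mean in the remaining libraries. Replicate 3 was the highest library for 2545 of the 5295, replicate 1 for 1379 and replicate 2 for 1371. The lowest library was replicate 3 for 1714, replicate 1 for 1816 and replicate 2 for 1765. In 1354 genes replicate 3 was at least 2 times above both others, as against 259 for replicate 1 and 289 for replicate 2. In 1048 genes replicate 3 was at least 2 times under both others.

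The spread fell with the level. Among 4621 genes with a mean of 10 to 50 CPM, 47.4% were 2 times or more apart between replicates 1 and 2, and among 867 genes of 200 to 1000 CPM 2.31% were. When replicate 3 was included these shares were 76.3% and 50.9%. For genes of 10 to 50 CPM the median coefficient of variation was 56.1%. Genes also fell out of single libraries. Under 1 CPM in one library and at 10 CPM or more in both others were 121 genes for replicate 1, 136 for replicate 2 and 18 for replicate 3. The reverse, 10 CPM or more in a single library and under 1 CPM in the others, was found for 65, 77 and 375 genes.

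Among 2955 protein-coding genes with a mean of at least 50 CPM the largest spread, as SD of log2(CPM + 0.1), was that of Sftpc with 8.83, followed by Sftpa1, Cbr2, H2-Ab1, H2-Aa, Lyz2, Chil1, Cav1, Cd36 and Tppp3 with 5.37. In all 10 replicate 3 was the highest. All 10 were under 50 CPM in the other libraries, so that they passed the filter through replicate 3. Cav1, a caveolin, was at 28.5, 0 and 278 CPM and Tppp3 at 0, 18.4 and 136 CPM. The smallest spread was that of Gtf3a, the RNA polymerase III factor TFIIIA, at 165, 167 and 167 CPM with an SD of 0.00639. Chordc1 at 93.6, 93.7 and 95.1 CPM was next, and others among the 10 with the smallest spread were Dnttip2, Jtb, Hmgb1, Erp29, Sgf29, Mterf3 and Golga7 at 89.1, 93.2 and 90.9 CPM. These were chosen by their spread in CPM. In TPM the first pair varied more, with 114 ± 25.5 TPM for Gtf3a and 21.9 ± 5.08 TPM for Chordc1. Between replicates 1 and 2 alone, the widest differences included Cav1, Tppp3, Cd36, Enpp5 at 71.8, 0.436 and 83.7 CPM and Ybx3, a cold-shock RNA-binding protein, at 2.79, 77.5 and 87.6 CPM.

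Deviations of the libraries moved with base composition. Over 5228 protein-coding genes with a mean of at least 20 CPM, the median log2 deviation of replicate 3 from the mean of the others was −0.31 in the fifth of genes with the lowest GC content (32.2% to 42.6%) and 0.86 in the fifth with the highest (53.7% to 68.4%). For replicate 1 the medians were 0.28 and −0.30, and for replicate 2 they were 0.18 and −0.16. By exonic length, the median deviation of replicate 3 was −0.38 in the fifth with the shortest genes (303 to 2195 bases) 0.46, 0.44 and 0.25 in the next 3, and −0.0077 in the fifth with the longest genes. GC content had a value for all 5228 genes. Spearman's rho across these genes, which share libraries and are not independent, was 0.30 between deviation and GC content for replicate 3, and 0.048 between deviation and exonic length.

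**Figure D5:**
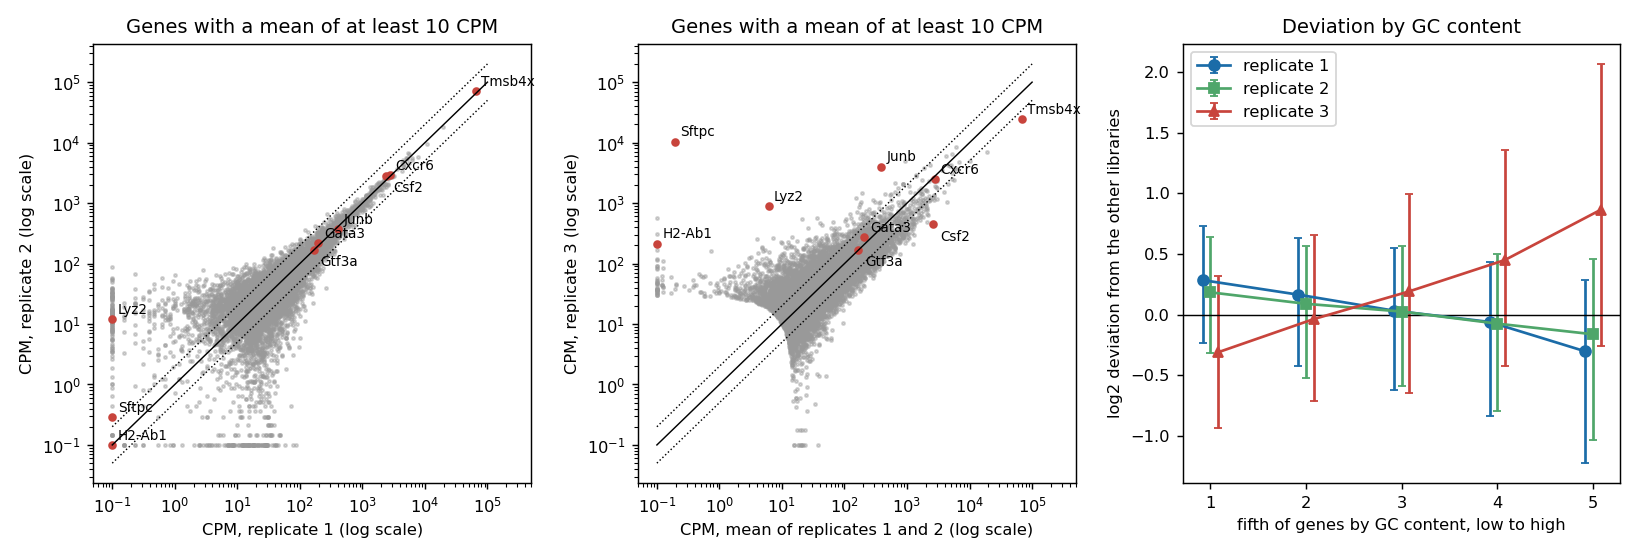
Left, CPM of replicate 2 against replicate 1, and middle, CPM of replicate 3 against the mean of replicates 1 and 2, for 7893 genes with a mean of at least 10 CPM on log axes, with the line of equality, dotted lines at 2-fold and values under 0.1 drawn at 0.1. Right, median log2 deviation of each library from the mean of the others in 5 equal groups of 5228 protein-coding genes by GC content, with bars from the lower to the upper quartile. Sftpc, Lyz2, H2-Ab1 and Junb lie above the line in replicate 3, Csf2 lies under it, and the deviation of replicate 3 rises from −0.31 to 0.86 with GC content.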

How the data were processed

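RNA-seq of 3 naïve C57BL/6J ILC2 libraries was analysed. Per the study's methods, the authors trimmed reads with fastp, assessed them with FastQC, aligned them to mm10 with STAR under default settings and counted them per gene with HTSeq. The deposited values are these raw counts, neither normalized nor filtered. The gene annotation and the strand setting are not given in the sources used here, so overlapping and antisense genes are uncertain. Of 55401 identifiers, 55141 have a symbol and position in GENCODE vM21 (GRCm38, the same assembly as mm10).

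Groups were taken from the labels, each library from a separate mouse. The other 3 columns of the count table and the second table, of cultured cells, were not used. CPM used TMM factors of edgeR 4.0.16 among these 3 libraries (0.954, 0.955 and 1.10), in R 4.3.3. The coefficient of variation used genes kept by filterByExpr with a minimum count of 10 and total of 15. TPM divided counts by the union of exons and were scaled to a sum of 1000000. Python 3.11.15 with pandas 2.3.3 did the rest. A gene with a mean of at least 10 CPM was called variable where the highest library was at least 2 times the lowest. Pairs of libraries differed far beyond sampling noise (chi-square per degree of freedom of 87.6 for replicates 1 and 2, 295 for 1 and 3, and 310.4 for 2 and 3), so none was counted as a duplicate.

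Genes are named by rule. They are the identity and sort genes, the 15 protein-coding genes highest by CPM and by TPM, up to 4 leading members and absent defining members of each list, the 10 with the largest and smallest spread, and 5 noncoding genes. A few genes that the rule takes are not reported here. Others were chosen after their values were seen, as were the gene families of respiration, translation and the proteasome, and the difference between replicates 1 and 2. The cells, lists and rules were chosen with earlier results of these data known. Alternatives were other detection and spread thresholds, no factor, size factors and dispersions of DESeq2 1.42.0, protein-coding genes only, CPM in place of TPM, and leaving out each replicate.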

Additional observations from a re-analysis of the deposited data

How the results depend on the processing

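With a single group no contrast between groups can be tested, and replicate 3 decides much of the spread. The number of variable genes, 5295, was 2171 without replicate 3 and ranged from 2171 to 3934 when each replicate was left out. It was 1770 with a mean of at least 50 CPM, 8998 with a mean of at least 2 CPM, and 3254 at a fold of 3 or more. The biological coefficient of variation, 0.62, was 1.25 with no filter on low counts, 0.468 from DESeq2, and 0.54 to 0.659 when each replicate was left out. Detected genes ranged from 6881 at 5 CPM to 10159 without replicate 1, and with other scaling they were 9187 and 9198. The share of counts in the 100 leading genes was 28.7% to 31.6% when each replicate was left out. Of 41 lists, 14 had a median TPM, over all measured members, at or above the median of detected protein-coding genes, and 12 to 15 had under the alternatives. Mean levels of 15 genes (the 10 markers, Csf2, Calca, Il13, Il2ra and Thy1) were computed under other scaling and without each replicate. Leaving out 1 of 3 libraries cannot move a mean by 1 SD, so that the size of the move is given instead. As a ratio of the higher to the lower mean, the 2 largest moves were those of Calca and Il13. Calca had a mean of 390.5 CPM and 254.5 CPM without replicate 2. Il13 had 3.5 CPM and 2.27 CPM without replicate 1. As differences in CPM others were larger, such as Csf2 at 1886.5 CPM and 2607.8 CPM without replicate 3. Il13 was at 5.02 CPM without replicate 3. No paired analysis was possible because a single group was used. For genes under 10 CPM, the depth and the low input limit what can be read from single libraries.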

Other observations

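Families that the report does not describe gave the following values. All 8 GIMAP genes, small GTPases of lymphocytes, were detected, with sums of 1880, 1859 and 2107 CPM. Of 1135 olfactory receptor genes 6 were detected, and 977 had 0 counts in all 3 libraries, with sums of 233, 214 and 114 CPM. Of 331 vomeronasal receptor genes 3 were detected, with sums of 140, 119 and 48 CPM.

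Single genes chosen after their values were seen include Trdv4, a variable segment of the T cell receptor delta locus, at 276, 280 and 180 CPM, and Hilpda, a lipid droplet protein induced by hypoxia, at 498, 522 and 422 CPM. Pde6h, which encodes a subunit of the phosphodiesterase of cone photoreceptors, was at 3125, 2793 and 1850 CPM, and the hair keratin gene Krt83 was at 203, 277 and 159 CPM. Ifi27l2a, an interferon-induced gene, was at 78.9 CPM in replicate 1, at 0 in replicate 2 and at 1.38 CPM in replicate 3.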
